A study of Bos taurus with 6 samples.

Results

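The 9 genes described here mark blood cells of the platelet and myeloid lineages: PF4, MPO, ELANE, S100A8, LTF, CAMP, CD68, SPI1 and MYB. All 9 were chosen by name, with earlier results of these data known. They were read from a table of raw counts for 14179 gene symbols, and all 9 passed the filter on low counts, as did 11478 symbols in all. The libraries were poly(A) RNA of whole forebrain, liver and rumen from wild-type (WT) male Holstein fetuses at 90 days, with 2 libraries of each tissue, named Forebrain 1 and 2, Liver 1 and 2 and Rumen 1 and 2. The labels name no agent, and give a slaughterhouse origin and a crown-rump length of 13 to 16 cm. Per the labels there were 2 male fetuses, which of them gave which library is not stated, and p-values therefore measure the spread between these libraries only.

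Platelets are shed by megakaryocytes, neutrophils pack their antimicrobial proteins into granules made in a fixed order, and macrophages digest what they engulf in lysosomes. In the neutrophil lineage, primary granules with MPO and ELANE are made at the promyelocyte stage, and secondary granules with LTF and CAMP at the later myelocyte stage. Before birth the liver is the main site of blood formation, so that megakaryocytes, granulocyte precursors and erythroblasts lie among its hepatocytes, together with resident macrophages, the Kupffer cells. The transcription factor SPI1 (PU.1) directs myeloid fate, and in mouse MYB is needed by blood progenitors of several lineages. The brain holds its own macrophages, the microglia, which in mouse also depend on SPI1.

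Library totals lay between 10271024 and 18528958 counts. Levels are given as CPM, in which each library is scaled by its total times its TMM factor, and they are not corrected for gene length, so that levels are compared between libraries and not between genes. The floor used for genes without counts, 3 counts summed over the 2 libraries, came to 0.115 CPM (forebrain), 0.103 CPM (liver) and 0.116 CPM (rumen), and covers counting error only. The labelled tissues were checked by lists of marker genes. All 19 tested hepatocyte genes passed higher in liver than in forebrain, 10 of 11 tested neuronal and patterning genes passed lower in rumen than in forebrain, and all 11 tested rumen epithelium and wall genes passed higher in rumen than in liver. The liver libraries stood apart from each other more than those of the other tissues. Among genes averaging 1000 counts or more, the SD of the log2 ratio between libraries 1 and 2 was 0.944 for liver, 0.249 for forebrain and 0.211 for rumen.

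Each of the 9 genes had most of its counts in liver. Both liver libraries lay above all 4 other libraries for 8 of the 9, ELANE being the exception, where 26.0% of all tested genes showed that order. Against rumen, 9 of 9 passed the test as lower in rumen, beside 20.3% of all tested genes, and 0 as higher, beside 20.1%. Against forebrain, 6 of 9 passed as higher in liver (PF4, MPO, S100A8, CAMP, CD68 and MYB), beside 29.4% of all tested genes, and 0 as lower, beside 25.9%. The median log2 fold change of the 9 was -6.41 in rumen minus liver and 3.01 in liver minus forebrain, where that of all tested genes was -0.06 and 0.14. Since the 9 genes were chosen with earlier results of these data known, these counts are descriptions. CAMP had counts in liver only and passed the filter through liver alone. The same shares of all tested genes stand beside the list counts below. In a bulk tissue, fewer cells of a type and less RNA per cell cannot be told apart.

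**Figure D1:**
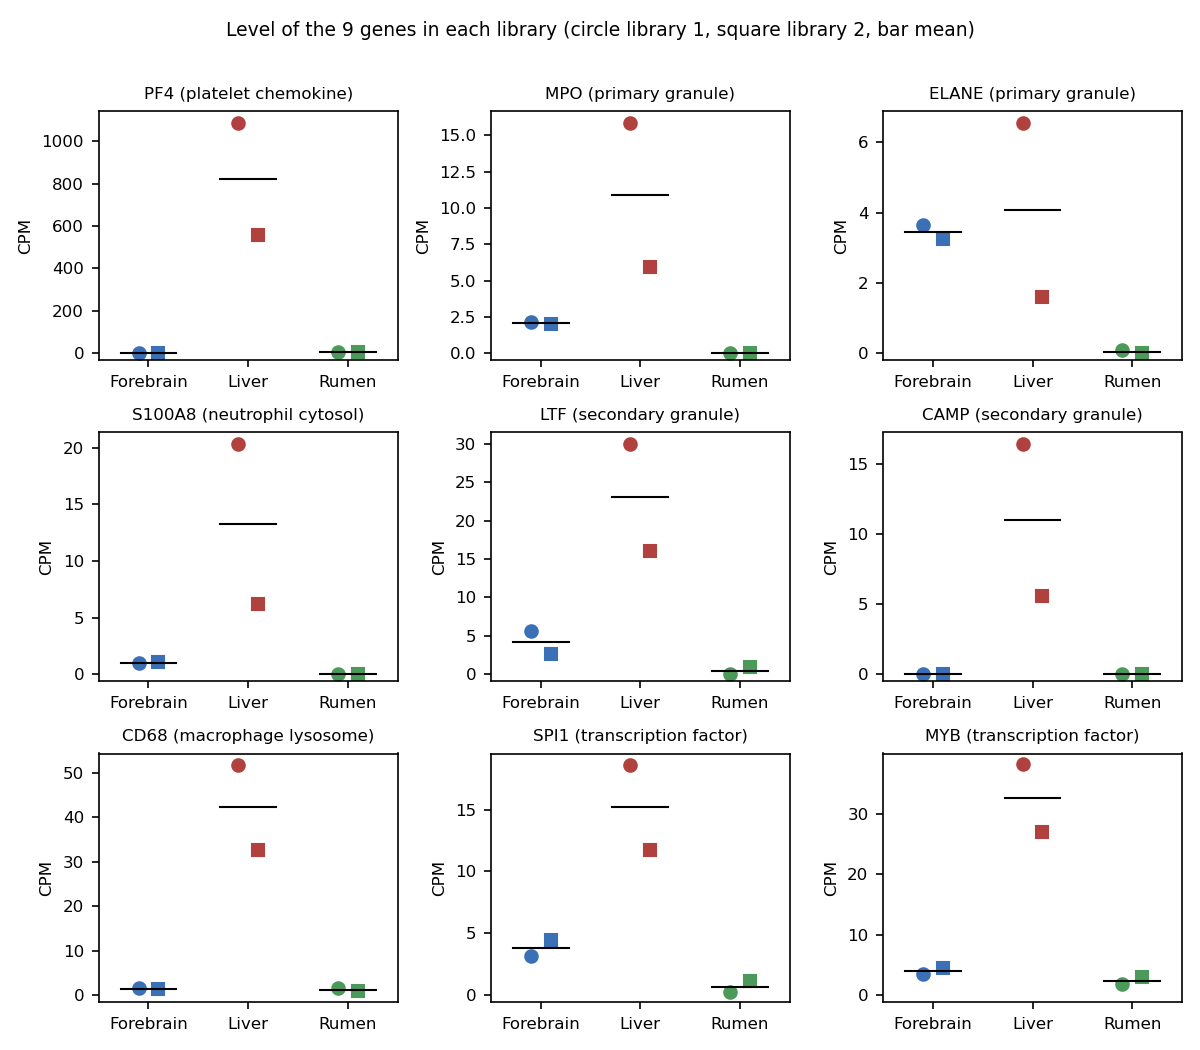
CPM of each of the 9 genes in Forebrain, Liver and Rumen, on a linear axis of its own per gene, with circles for library 1, squares for library 2 and a bar at the mean of the 2 libraries. Liver 1 is the highest library in every panel, and ELANE is the panel where Liver 2, at 1.61 CPM, lies below both forebrain libraries.

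The platelet chemokine PF4, stored in the alpha granules of platelets and made by megakaryocytes, was high in both liver libraries. Liver 1 had 14592 counts (1086 CPM) and Liver 2 had 8662 counts (556 CPM). Rumen 1 and 2 stood at 4.82 and 4.76 CPM, and Forebrain 1 and 2 at 0.976 and 0.866 CPM. The 3 tissues did not overlap, and rumen lay between liver and forebrain. PF4 was 885-fold higher in liver than in forebrain (821 ± 375 against 0.921 ± 0.0776 CPM, SD, n = 2; log2 fold change 9.79 ± 0.50 (SE)), at adjusted p = 6.13e-05 in the quasi-likelihood F test of edgeR, Benjamini-Hochberg adjusted over all tested genes. It was 171-fold lower in rumen than in liver (log2 fold change -7.42 ± 0.44 (SE); adjusted p = 0.000227). Rumen was 5.17-fold above forebrain for PF4 (log2 fold change 2.37 ± 0.43 (SE); adjusted p = 0.00658), the only gene of the 9 to pass in that direction, beside 19.5% of all tested genes, and this call was lost without Forebrain 2 (adjusted p = 0.0557; over all alternatives 2.01e-05 to 0.0557).

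The platelet and megakaryocyte list, 16 tested of 24, went the same way as PF4 against liver. In rumen, 14 passed lower and 0 higher than in liver, and 15 passed higher and 0 lower in liver than in forebrain, with a median log2 fold change of -7.11 and 7.86 (-6.73 and 7.26 with tissues without counts set at the floor). NFE2, a transcription factor needed to form platelets, had 14118 counts over both liver libraries, 4 in forebrain and 0 in rumen, at least 4199.9-fold above the floor of rumen. THBS1, the alpha granule and matrix protein thrombospondin 1, was 106-fold higher in liver than in forebrain (737 ± 559 against 6.98 ± 1.40 CPM, SD, n = 2; adjusted p = 0.000485). ITGB3, the beta chain of the fibrinogen receptor of platelets, was 204-fold higher in liver than in forebrain at 426 ± 269 CPM (adjusted p = 0.00016). Its partner ITGA2B, named after its values were seen, was 126-fold higher at 357 ± 185 CPM (adjusted p = 0.000115). Erythroid cells use NFE2 and GATA1 too, and the erythroid list summed to 160601 and 66770 CPM in Liver 1 and 2, so that these 2 genes are not specific to megakaryocytes.

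Between rumen and forebrain, 6 of the 16 platelet and megakaryocyte genes passed higher in rumen and 0 lower, but the number was 2 without Forebrain 2 and 3 without Forebrain 1 or either rumen library. The 6 genes were PF4, ITGA2B, ITGB3, SELP, FLI1 and THBS1. Of all tested genes 19.5% passed higher in rumen than in forebrain and 19.9% lower. ITGB3 stood at 41.7 and 46.4 CPM in Rumen 1 and 2 and at 2.36 and 1.80 CPM in Forebrain 1 and 2. NFE2 and GATA1 had no counts in rumen. SELP and FLI1 are also genes of endothelium, ITGB3 and THBS1 are also expressed by stromal and vascular cells, and the endothelium list of 15 genes summed to 514 and 446 CPM in Rumen 1 and 2 against 263 and 360 CPM in Forebrain 1 and 2. The part of these cells in the PF4 difference was not tested.

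Among the neutrophil primary granule genes, MPO and ELANE differed in whether the liver and forebrain libraries overlapped. MPO, the myeloperoxidase that makes hypochlorous acid, had 213 and 92 counts in Liver 1 and 2 (15.9 and 5.91 CPM). It had 26 and 28 counts in Forebrain 1 and 2 (2.11 and 2.02 CPM) and 0 counts in both rumen libraries. The tissues did not overlap. MPO was at least 90.7-fold higher in liver than the floor of rumen (adjusted p = 0.00296), a bound of 51.0 without Liver 1 and 137 without Liver 2, and at least 17.8-fold higher in forebrain than that floor (adjusted p = 0.00867), in edgeR's quasi-likelihood test. Liver was 5.24-fold above forebrain (log2 fold change 2.39 ± 0.73 (SE); adjusted p = 0.0376), a call that was lost without Forebrain 1 (adjusted p = 0.177), without Forebrain 2 (adjusted p = 0.187), without Liver 1 (2.84-fold; adjusted p = 0.125) and on library totals with no scaling factor (adjusted p = 0.0741). Over all alternatives this adjusted p ran from 0.00283 to 0.187.

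ELANE, neutrophil elastase, a serine protease of the same granules, had 88 and 25 counts in Liver 1 and 2 (6.55 and 1.61 CPM) and 45 counts in each forebrain library (3.66 and 3.25 CPM). Rumen 1 had 1 count and Rumen 2 had 0. The forebrain libraries thus lay between the liver libraries. Liver minus forebrain gave a log2 fold change of 0.24 ± 0.88 (SE) with adjusted p = 0.837, and no alternative passed (adjusted p from 0.307 to 0.945). Its log2 fold change was -1.10 without Liver 1, 0.92 without Liver 2 and -0.27 on library totals with no scaling factor, so that the data gave no settled order of liver and forebrain for ELANE. ELANE passed as lower in rumen than in liver (adjusted p = 0.0102) at a pooled ratio of 101 (95% counting interval 17.7 to 4018), which was 41.6 (6.80 to 1706) without Liver 1 and 170 (29.7 to 6773) without Liver 2, but not without Rumen 2 (adjusted p = 0.0695; over all alternatives 0.000411 to 0.0695). It also passed as lower in rumen than in forebrain (adjusted p = 0.012), with a ratio of 89.1 (95% counting interval 15.6 to 3557), but not without either forebrain or either rumen library (adjusted p = 0.0528 to 0.0778).

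Counts of MPO per count of ELANE within a library can be set side by side across tissues. There were 0.578 and 0.622 MPO counts per ELANE count in Forebrain 1 and 2, and 2.42 and 3.68 in Liver 1 and 2. The forebrain ratios lay below both liver ratios. In the RefSeq gene table of cattle, assembly ARS-UCD2.0, MPO overlaps its neighbour LPO, lactoperoxidase, whose own counts were 30 and 26 in Liver 1 and 2, 4 and 1 in Forebrain 1 and 2, and 3 and 10 in Rumen 1 and 2. Without a stated strand setting reads of overlapping genes cannot be told apart. ELANE overlaps no gene there. Of the other primary granule genes, BPI, a protein that binds bacterial endotoxin, and CEBPE, a transcription factor of granulocyte maturation, both named after their values were seen, had no counts in forebrain or rumen. BPI stood at 4.62 and 2.18 CPM and CEBPE at 1.34 and 1.73 CPM in Liver 1 and 2.

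Of the primary granule list, 8 tested of 12, 4 passed lower and 0 higher in rumen than in liver (MPO, ELANE, BPI and CEBPE), and 1 passed lower without Rumen 2 and 1 higher without Liver 2. Against forebrain, 5 passed higher in liver and 0 lower, and 2 passed higher without either forebrain library. The median log2 fold change was -4.04 in rumen minus liver and 3.98 in liver minus forebrain (-2.70 and 2.999 with tissues without counts set at the floor). The list also holds genes used by many cell types. CTSC, a protease that activates the granule proteases and is widely expressed, averaged 143 ± 21.8 CPM in rumen against 97.2 ± 4.11 CPM in liver (SD, n = 2; adjusted p = 0.0887). SERPINB1, an inhibitor of neutrophil elastase, was 35.3-fold higher in liver than in forebrain at 24.7 ± 19.1 CPM (adjusted p = 0.00211). LYZ, lysozyme, of a family of several genes in cattle, stood at 6.51 and 7.65 CPM in Forebrain 1 and 2, 2.46 and 3.15 CPM in Liver 1 and 2, and 1.68 and 0.078 CPM in Rumen 1 and 2, and passed in none of the 3 comparisons.

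LTF and CAMP, of the secondary granules, differed in whether forebrain had counts. LTF, the iron-binding protein lactoferrin, had 403 and 250 counts in Liver 1 and 2 (30.0 and 16.1 CPM), 69 and 37 in Forebrain 1 and 2 (5.61 and 2.67 CPM), 0 in Rumen 1 and 12 in Rumen 2 (0.936 CPM). The tissues did not overlap, with forebrain between liver and rumen. LTF was 48.4-fold lower in rumen than in liver (log2 fold change -5.60 ± 1.23 (SE); adjusted p = 0.0131). The fold was 24.4 without Rumen 1, and without Rumen 2 the remaining rumen library had no LTF counts. Liver against forebrain missed the threshold at a log2 fold change of 2.48 ± 1.02 (SE) and adjusted p = 0.0795, with 0.00768 to 0.318 over the alternatives, of which 5 of 12 passed. Rumen against forebrain missed it as well (log2 fold change -3.12 ± 1.16 (SE); adjusted p = 0.0749), with 5 of 12 alternatives passing. Without Rumen 2, which held all 12 rumen counts, it passed (adjusted p = 0.0251; over all alternatives 0.0103 to 0.282).

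CAMP, a cathelicidin whose cleaved peptide kills bacteria, had 221 and 87 counts in Liver 1 and 2 (16.5 and 5.59 CPM) and 0 counts in all 4 other libraries. Pooled liver was at least 91.6-fold above the floor of rumen (adjusted p = 0.0086) and at least 92.6-fold above that of forebrain (adjusted p = 0.00583) in edgeR's quasi-likelihood test. These bounds were 48.2 and 48.7 without Liver 1, and 142 and 143 without Liver 2. DESeq2's Wald test did not pass either comparison (adjusted p = 0.0882 and 0.0744), where the other alternatives passed (from 0.000232 and 0.000167). Cattle have several cathelicidin genes. CATHL1, CATHL2 and CATHL3, named after their values were seen, had 473, 672 and 519 counts over both liver libraries and, like CAMP, none in forebrain or rumen. Reads of such related genes can be shared, so that the level of each of them is uncertain.

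The list of secondary and later granule genes, 17 tested of 21, had 13 members lower and 1 higher in rumen than in liver, and 12 higher and 0 lower in liver than in forebrain. The number lower in rumen was 7 without either rumen library, and the number higher there was 0 in those same fits and 2 when Liver 1 or Liver 2 was left out. The median log2 fold change was -3.60 in rumen minus liver and 6.36 in liver minus forebrain (5.61 with tissues without counts set at the floor). The gene that passed higher in rumen was CYBA, a subunit of the oxidase that makes superoxide, used by many cell types, at 122 ± 36.3 CPM against 52.0 ± 10.7 CPM in liver (SD, n = 2; adjusted p = 0.0277). PGLYRP1, which binds bacterial cell walls, stood at 63.8 and 18.4 CPM in Liver 1 and 2, 8.88 and 7.88 CPM in Rumen 1 and 2, and 0.244 and 0.0722 CPM in Forebrain 1 and 2. ARG1, arginase, which hepatocytes also use in the urea cycle, was 60.8-fold higher in liver than in forebrain at 149 ± 40.3 CPM (adjusted p = 7.5e-05).

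S100A8 is a calcium-binding protein of neutrophil cytosol that pairs with S100A9 to form calprotectin. The genes S100A8, S100A9 and S100A12 had different orders across the tissues. S100A8 had 273 and 97 counts in Liver 1 and 2 (20.3 and 6.23 CPM), 12 and 15 in Forebrain 1 and 2 (0.976 and 1.08 CPM) and none in rumen. The tissues did not overlap. Liver was 12.8-fold above forebrain (log2 fold change 3.68 ± 0.83 (SE); adjusted p = 0.0137), a call lost without Forebrain 1 (adjusted p = 0.0974) or Forebrain 2 (adjusted p = 0.0931), with 0.000296 to 0.0974 over the alternatives. The fold was 5.99 without Liver 1 and 19.5 without Liver 2. Liver was at least 110.1-fold above the floor of rumen for S100A8 (adjusted p = 0.00332), a bound of 53.8 without Liver 1 and 175 without Liver 2. Forebrain was at least 8.91-fold above that floor (adjusted p = 0.0193), but the call was lost without either forebrain or either rumen library (adjusted p = 0.0717 to 0.0761).

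S100A9 stood at 47.3 and 11.6 CPM in Liver 1 and 2, 12.4 and 10.1 CPM in Rumen 1 and 2, and 0.813 and 0.361 CPM in Forebrain 1 and 2. Liver and rumen overlapped for S100A9 (adjusted p = 0.159), and both passed above forebrain (adjusted p = 0.00233 and 0.00914). S100A12, the neighbour of S100A8 in the RefSeq table, stood at 501 and 451 CPM in Rumen 1 and 2, 31.8 and 9.12 CPM in Liver 1 and 2, and 0.0813 and 0.217 CPM in Forebrain 1 and 2. It was 23.3-fold higher in rumen than in liver (adjusted p = 0.00204), while S100A8 had no counts in rumen. Squamous epithelia can also express S100 genes of this cluster. ANXA1, annexin A1, a protein of neutrophils and of squamous epithelium, went with S100A12 and was 27.3-fold higher in rumen than in liver at 702 ± 53.4 against 25.8 ± 15.3 CPM (SD, n = 2; adjusted p = 0.000729).

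Of the S100 and neutrophil surface list, 9 tested of 16, 3 passed lower and 2 higher in rumen than in liver, and 6 passed higher and 0 lower in liver than in forebrain. The higher pair was S100A12 and ANXA1, and the lower ones included S100A8 and ITGB2. Without Liver 2 the number lower in rumen was 7. Of all tested genes 20.3% passed lower and 20.1% higher in rumen than in liver. The 3 and 2 of 9 here are near these shares. The median log2 fold change was -3.35 in rumen minus liver and 3.68 in liver minus forebrain. ITGB2, the shared beta chain of the leucocyte integrins, was 91.9-fold lower in rumen than in liver at 0.231 ± 0.106 against 22.1 ± 7.86 CPM (SD, n = 2; adjusted p = 0.00139), and 5.68-fold higher in liver than in forebrain (adjusted p = 0.0139).

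**Figure D2:**
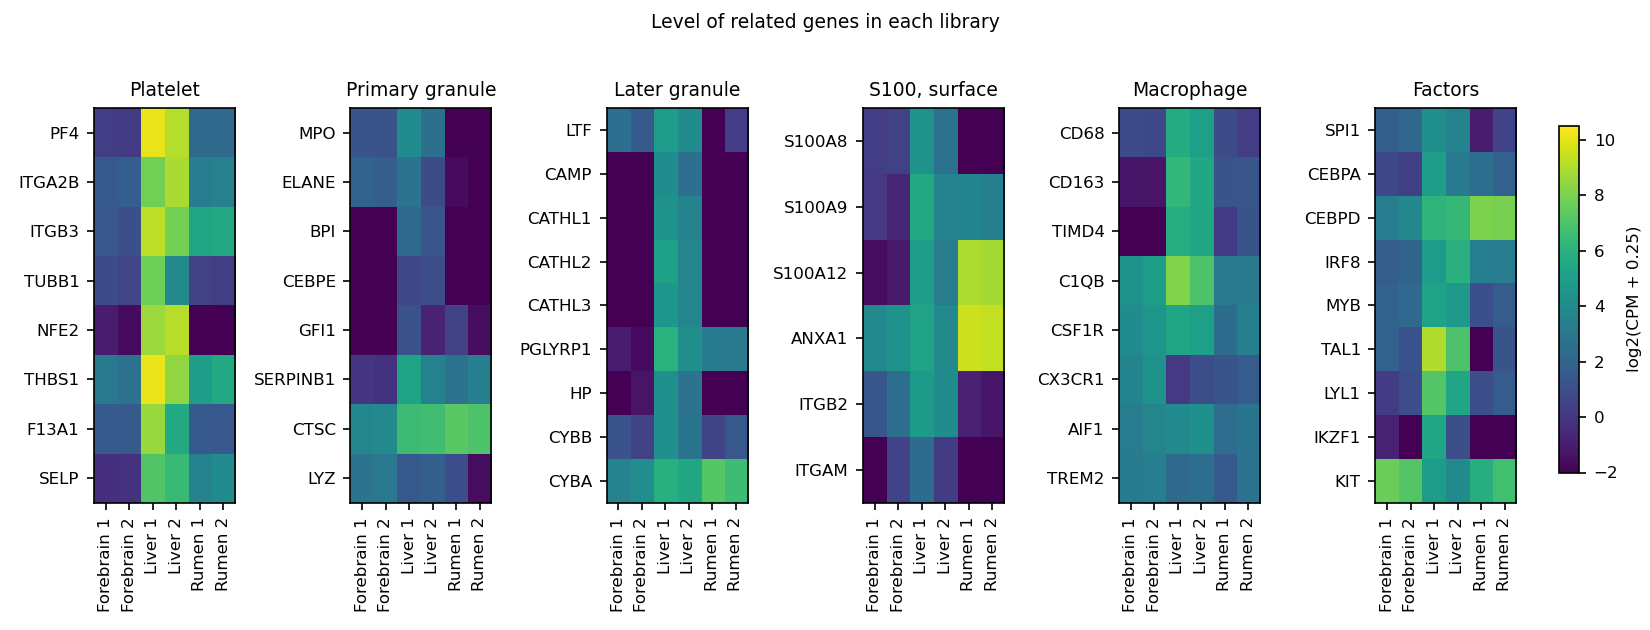
Colour shows log2(CPM + 0.25) of selected genes in each of the 6 libraries, grouped as platelet, primary granule, later granule, S100 and surface, macrophage, and transcription and progenitor factors. BPI, CAMP and CATHL1 to CATHL3 are dark outside liver, MPO, ELANE and LTF are above the darkest colour in forebrain, and S100A12 and ANXA1 are brightest in rumen.

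Several granule genes that liver expressed were thus at 0 in forebrain, while 54 counts of MPO, 90 of ELANE, 106 of LTF and 27 of S100A8 were found there over both libraries. CAMP, CATHL1, CATHL2, CATHL3, BPI and CEBPE had 0 counts in forebrain. Over the whole primary granule list, the summed level was 26.1 and 27.9 CPM in Forebrain 1 and 2, 165 and 126 CPM in Liver 1 and 2, and 167 and 137 CPM in Rumen 1 and 2, most of it CTSC in rumen. The erythroid list holds globins, whose RNA is carried by circulating red cells, and other genes. It summed to 589 and 623 CPM in Forebrain 1 and 2 and to 787 and 663 CPM in Rumen 1 and 2. Its median log2 fold change in rumen minus forebrain was -0.13 (0 with tissues without counts set at the floor). GYPC and SLC25A37 passed higher in rumen than in forebrain and TMCC2 lower, and no globin passed. PTPRC, the common leucocyte antigen CD45, had 44 counts in forebrain and 1 in rumen, but the pan-leucocyte list did not follow it. Of its 15 tested genes 3 passed higher in rumen than in forebrain and 3 lower, PTPRC among the lower. These numbers are near the shares of all tested genes, 19.5% and 19.9%. The list summed to 126 and 205 CPM in Forebrain 1 and 2 and to 198 and 197 CPM in Rumen 1 and 2. The part of blood or leucocytes in the forebrain counts of MPO, ELANE and LTF was not tested.

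CD68, a lysosomal glycoprotein of macrophages, separated liver from both other tissues. It had 695 and 508 counts in Liver 1 and 2 (51.7 and 32.6 CPM), 19 in each forebrain library (1.54 and 1.37 CPM), and 21 and 12 in Rumen 1 and 2 (1.61 and 0.936 CPM). The forebrain libraries lay between the rumen libraries. CD68 was 28.8-fold higher in liver than in forebrain (log2 fold change 4.85 ± 0.49 (SE); adjusted p = 0.000426) and 32.9-fold lower in rumen than in liver (log2 fold change -5.04 ± 0.50 (SE); adjusted p = 0.000681), and all 12 alternatives passed in both. Rumen minus forebrain gave -0.19 ± 0.48 (SE) on the log2 scale (adjusted p = 0.778).

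Most macrophage and Kupffer cell genes had the order of CD68 against liver. Of 20 tested of 25, 17 passed lower and 0 higher in rumen than in liver, and 17 passed higher and 0 lower in liver than in forebrain, with median log2 fold changes of -4.20 and 4.19. Without Rumen 1 the number lower in rumen was 11, and without Rumen 2 it was 10. SLC40A1, the iron exporter ferroportin, was 18.5-fold higher in liver than in forebrain at 466 ± 59.0 CPM (adjusted p = 6.92e-05). C1QB, a chain of complement C1q, was 25.4-fold lower in rumen than in liver, at 7.96 ± 0.108 against 202 ± 105 CPM (SD, n = 2; adjusted p = 0.000728). STAB1, a scavenger receptor also of sinusoidal endothelium, stood at 111 and 402 CPM in Liver 1 and 2 and at 91.7 and 109 CPM in Rumen 1 and 2 (adjusted p = 0.096). LGMN, a lysosomal protease, stood at 140 ± 19.2 CPM in liver and 116 ± 2.16 CPM in rumen (SD, n = 2; adjusted p = 0.344). TIMD4, a receptor for dying cells on resident macrophages, named after its values were seen, had 1419 counts in liver and none in forebrain.

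In forebrain and rumen, CX3CR1 and CSF1R stood in other proportions to CD68 than in liver. The fractalkine receptor CX3CR1, high in microglia, stood at 12.1 and 20.6 CPM in Forebrain 1 and 2, 0.819 and 1.73 CPM in Liver 1 and 2, and 2.14 and 2.89 CPM in Rumen 1 and 2. It was 12.7-fold lower in liver than in forebrain (adjusted p = 0.00367), opposite to CD68. Counts of CX3CR1 per count of CD68 were 7.84 and 15.0 in Forebrain 1 and 2. They were 1.33 and 3.08 in Rumen 1 and 2, and 0.0158 and 0.0531 in Liver 1 and 2. CSF1R, the receptor for colony-stimulating factor 1 on all macrophages, stood at 16.1 and 23.4 CPM in forebrain, 40.1 and 33.7 CPM in liver, and 5.05 and 10.3 CPM in rumen, and liver did not pass above forebrain (1.87-fold; adjusted p = 0.111). Of 11 tested of 12 microglia genes, 3 passed higher and 1 lower in liver than in forebrain, and 5 lower and 1 higher in rumen than in liver. The shares of all tested genes were, in that order, 29.4%, 25.9%, 20.3% and 20.1%, so that 3 of 11 is near its share. The higher ones against forebrain included OLFML3, which other cell types express too, and C1QA, which other macrophages make, and without Liver 2 their number was 5. The number lower in rumen than in liver was 1 without Rumen 1 and 2 without Rumen 2 or either forebrain library, and the number higher was 2 without Liver 2. The gene higher in rumen was TMEM119, also known from bone and stromal cells, at 37.8 ± 1.17 CPM against 0.186 ± 0.263 CPM in liver (SD, n = 2; adjusted p = 0.00317). In forebrain TMEM119 had 3 counts over both libraries, against 979 in rumen and 5 in liver. The 1 gene of this list that passed lower in liver than in forebrain was CX3CR1.

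SPI1, the factor PU.1 that switches on genes of myeloid cells, had 250 and 183 counts in Liver 1 and 2 (18.6 and 11.8 CPM), 39 and 62 in Forebrain 1 and 2 (3.17 and 4.47 CPM), and 3 and 15 in Rumen 1 and 2 (0.230 and 1.17 CPM). Liver, forebrain and rumen followed in that order without overlap. SPI1 was 21.5-fold lower in rumen than in liver (log2 fold change -4.42 ± 0.83 (SE); adjusted p = 0.00735), and all 12 alternatives passed, with 12.9-fold without Rumen 1 and 62.6-fold without Rumen 2. Liver against forebrain missed the threshold at a log2 fold change of 1.99 ± 0.73 (SE) and adjusted p = 0.0557, with 0.0114 to 0.247 over the alternatives, of which 5 of 12 passed. Rumen was 5.42-fold below forebrain (log2 fold change -2.44 ± 0.79 (SE)) at adjusted p = 0.0497, a call lost without Forebrain 1 (adjusted p = 0.133), Forebrain 2 (adjusted p = 0.205) or Rumen 1 (3.26-fold; adjusted p = 0.164), while the fold was 15.8 without Rumen 2, with adjusted p of 0.0086 to 0.205 over the alternatives.

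MYB, which keeps blood progenitors dividing, had 512 and 420 counts in Liver 1 and 2 (38.1 and 27.0 CPM), 43 and 63 in Forebrain 1 and 2 (3.50 and 4.55 CPM), and 24 and 38 in Rumen 1 and 2 (1.84 and 2.97 CPM). Each forebrain library lay above each rumen library, but the difference did not pass (log2 fold change -0.74 ± 0.44 (SE); adjusted p = 0.226), so the order of these tissues was not established. MYB was 8.07-fold higher in liver than in forebrain (log2 fold change 3.01 ± 0.45 (SE); adjusted p = 0.00203) and 13.5-fold lower in rumen than in liver (log2 fold change -3.76 ± 0.47 (SE); adjusted p = 0.00158), and all 12 alternatives passed in both.

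Between rumen and forebrain, 4 of the 9 genes passed lower in rumen (MPO, ELANE, S100A8 and SPI1), beside 19.9% of all tested genes, and 1 passed higher (PF4). These 5 calls were 1 without Forebrain 2, 2 without Forebrain 1 or Rumen 1, 4 without Rumen 2 and 6 without either liver library. MPO was the gene that passed lower under all 12 alternatives (adjusted p from 8.17e-05 to 0.0458). CAMP had no counts in either tissue, and CD68, MYB and LTF did not pass.

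**Figure D3:**
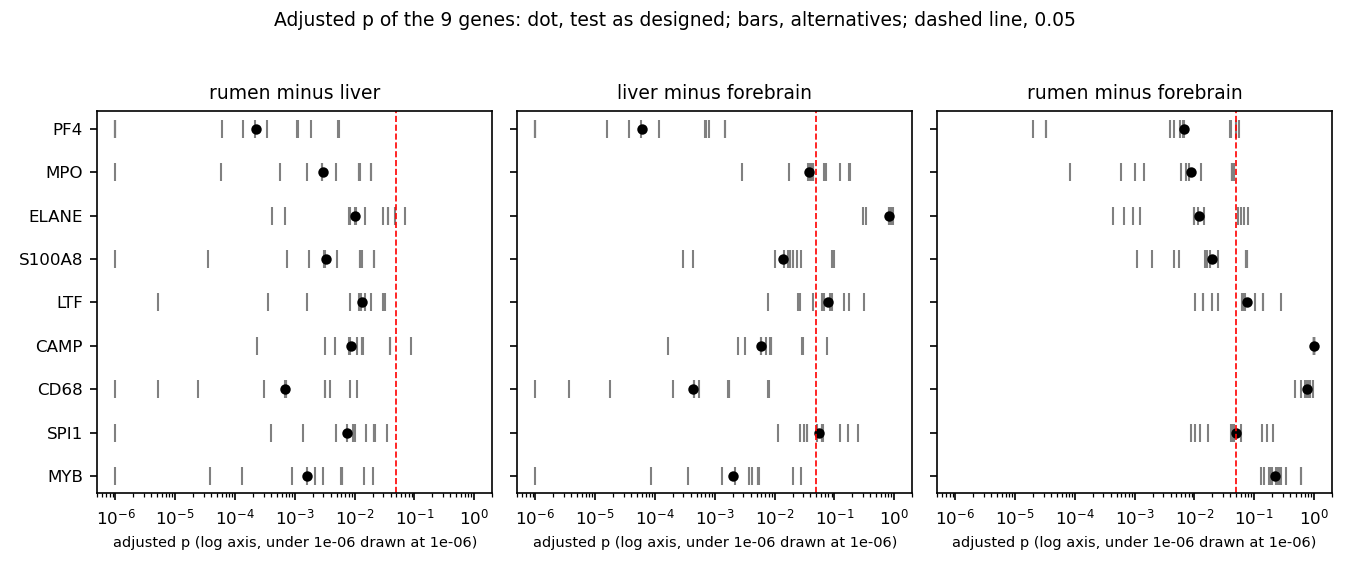
Adjusted p of each gene on a log axis for rumen minus liver, liver minus forebrain and rumen minus forebrain, with a dot for the test as designed, a grey bar for each of 12 alternatives (11 for CAMP in rumen minus forebrain) and a dashed line at 0.05. All 9 dots lie left of the line in rumen minus liver, 6 in liver minus forebrain and 5 in rumen minus forebrain, where SPI1 lies at 0.0497.

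Of 13 tested of 16 myeloid transcription factors, 5 passed lower and 2 higher in rumen than in liver, and 7 higher and 2 lower in liver than in forebrain, with median log2 fold changes of -1.26 and 3.56 (3.17 with tissues without counts set at the floor). The shares of all tested genes were, in that order, 20.3%, 20.1%, 29.4% and 25.9%. The 2 of 13 higher in rumen and the 2 of 13 lower in liver were under these shares. The number lower in rumen was 2 without either forebrain library and 1 without either rumen library. The number lower in liver than in forebrain was 0 without either forebrain library and 1 without either rumen library. CEBPD, also induced in many tissues, averaged 254 ± 8.99 CPM in rumen against 74.7 ± 8.36 CPM in liver (SD, n = 2; adjusted p = 0.00289). KLF4, a factor of monocytes and of barrier epithelia, was 28.5-fold higher in rumen than in liver (adjusted p = 0.000383) and 2.72-fold lower in liver than in forebrain (adjusted p = 0.016). ID2, an inhibitor of helix-loop-helix factors, was 1.74-fold lower in liver than in forebrain (adjusted p = 0.0461). IRF5, a factor of inflammatory signalling, was 31.6-fold higher in liver than in forebrain at 62.4 ± 41.9 CPM (adjusted p = 0.000828), and the early response factor JUNB 11.8-fold higher at 100.3 ± 64.8 CPM (adjusted p = 0.00201).

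Of 18 tested of 22 progenitor and stem cell genes, 9 passed lower and 3 higher in rumen than in liver, and 12 higher and 2 lower in liver than in forebrain, with median log2 fold changes of -3.18 and 3.06. The numbers against liver were 5 and 1 without Rumen 2, and the number higher in liver than in forebrain was 7 without Forebrain 1. LMO2, a bridging protein of blood transcription complexes, was 5.57-fold higher in liver than in forebrain at 260 ± 101 CPM (adjusted p = 0.00115). TAL1, a factor of blood stem cells and erythroid cells, was 121-fold higher at 323 ± 272 CPM (adjusted p = 0.00429). CD34, a surface protein of progenitors and endothelium, was 19.4-fold higher at 224 ± 58.8 CPM (adjusted p = 0.000131). The genes that ran the other way were KIT, MEIS1 and the receptor ADGRG1, all higher in rumen than in liver. MEIS1, a homeobox factor also of mesenchyme, was 16.7-fold higher in rumen than in liver at 358 ± 18.6 CPM (adjusted p = 0.000601).

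Of the pan-leucocyte genes, 15 tested of 18, 9 passed lower and 0 higher in rumen than in liver, and 12 higher and 0 lower in liver than in forebrain, with median log2 fold changes of -2.95 and 2.41. Without Rumen 1 and Rumen 2 the number lower was 4 and 3, and without Liver 1 the number higher in rumen was 1. Against forebrain the number higher was 4 without Forebrain 1, and the number lower was 1 without Liver 1. LAPTM5, a lysosomal protein of blood cells, was 3.36-fold higher in liver than in forebrain at 166 ± 81.6 CPM (adjusted p = 0.0156). CORO1A, an actin regulator of leucocytes that neurons express too, stood at 44.8 and 62.5 CPM in Forebrain 1 and 2 and at 54.8 and 11.5 CPM in Liver 1 and 2, and did not pass (adjusted p = 0.398). Of 5 tested mast cell, basophil and eosinophil genes of 14, 3 passed lower and 1 higher in rumen than in liver, which became 1 lower without Rumen 2 and 0 higher without either forebrain or either rumen library. CCR3, the eotaxin receptor of eosinophils, had 342 counts in liver and none in the other tissues. The gene higher in rumen was the mast cell tryptase TPSB2, at 17.6 ± 2.70 against 3.07 ± 2.61 CPM (SD, n = 2; adjusted p = 0.0289). Of 8 tested lymphocyte genes of 22, 2 passed lower and 2 higher in rumen than in liver, and 2 higher (NKG7 and CD27) and 3 lower (CD247, LCK and EBF1) in liver than in forebrain, numbers that moved when libraries were left out: against rumen to 0 higher without either forebrain or either rumen library, to 4 lower without Liver 2, to 1 lower without Rumen 1 and to 0 lower without Rumen 2, and against forebrain to 0 higher without either forebrain library and 5 higher without Liver 2. With 8 genes, these lymphocyte counts lie near the shares of all tested genes given above and show nothing about the list.

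Of the growth factors and receptors of these lineages, 12 tested of 20, 4 passed lower and 3 higher in rumen than in liver, and 6 higher and 3 lower in liver than in forebrain, with median log2 fold changes of -0.45 and 1.45. Over all tested genes 20.3% passed lower and 20.1% higher in rumen than in liver, and 29.4% higher and 25.9% lower in liver than in forebrain, so that 3 of 12 is near the share of all genes. Without Rumen 1 the numbers against rumen were 2 and 1, and without Rumen 2 they were 2 and 0. Without Forebrain 2 the numbers against forebrain were 2 and 1, and without Forebrain 1 the number lower was 1. THPO, thrombopoietin, the hormone that drives megakaryocyte growth and is made by hepatocytes, stood at 7.15 and 38.7 CPM in Liver 1 and 2, 0.976 and 0.361 CPM in Forebrain 1 and 2, and 3.37 and 5.62 CPM in Rumen 1 and 2. Unlike the 9 genes, THPO was higher in Liver 2 than in Liver 1. The erythropoietin receptor EPOR was 89.6-fold higher in liver than in forebrain at 186 ± 35.4 CPM (adjusted p = 0.000155), and the interleukin 6 receptor IL6R 16.4-fold higher at 7.09 ± 5.13 CPM (adjusted p = 0.0213).

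The ligand FLT3LG was 2.64-fold higher in liver than in forebrain (adjusted p = 0.0423), while IL34, a ligand of CSF1R known in mouse to maintain microglia, was 8.85-fold lower in liver than in forebrain at 0.896 ± 0.00413 against 8.01 ± 0.404 CPM (SD, n = 2; adjusted p = 0.00578). KIT, the stem cell factor receptor, also of neural and mast cells, was 7.68-fold lower in liver than in forebrain (adjusted p = 0.00266). The chemokine CXCL12, which holds progenitors in their niche, stood at 133 ± 6.40 CPM in rumen, 46.7 ± 17.9 CPM in liver and 16.4 ± 2.68 CPM in forebrain (SD, n = 2), and liver passed in both comparisons (adjusted p = 0.0114 and 0.00836). Its receptor CXCR4 was 3.07-fold higher in rumen than in liver (adjusted p = 0.023) and 3.49-fold lower in liver than in forebrain (adjusted p = 0.0112).

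All 9 genes were higher in Liver 1 than in Liver 2, an order that 49.1% of all tested genes had. The ratio of Liver 1 to Liver 2 was 4.08 for ELANE (95% counting interval 2.59 to 6.64), 3.26 for S100A8 (2.58 to 4.16), 2.94 for CAMP (2.29 to 3.82) and 2.68 for MPO (2.09 to 3.47). It was 1.95 for PF4 (1.90 to 2.01) and 1.87 for LTF (1.59 to 2.20). It was 1.59 for CD68 (1.41 to 1.78), 1.58 for SPI1 (1.30 to 1.93) and 1.41 for MYB (1.24 to 1.61). These intervals, exact binomial ones at 95%, cover counting error only, and with 1 library on each side no test of the difference was possible. The genes of the granules and S100A8 thus had ratios of 1.87 or more, and CD68, SPI1 and MYB ratios under 1.60.

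The median log2 ratio of Liver 1 to Liver 2, computed on CPM + 0.25, was 0.97 for the 9 genes and 0.00 for all tested genes. It was 1.18 for the platelet and megakaryocyte list, 1.19 for primary granule, 0.87 for secondary and later granule, 1.27 for S100 and neutrophil surface and 0.98 for pan-leucocyte genes. It was 0.71 for the erythroid list, whose 25 tested genes all passed higher in liver than in each other tissue, 0.37 for macrophage and Kupffer cell genes, 0.51 for 17 proliferation genes, 0.46 for endothelium and 0.10 for hepatocyte genes. It was -0.74 for lymphocyte genes, of which 2 of 8 were higher in Liver 1, and -0.22 for microglia genes, of which 4 of 11 were. The hepatocyte list summed to 256101 and 221753 CPM in Liver 1 and 2. Within the platelet list the ratios were not uniform. TUBB1, the tubulin of the platelet rim, named after its values were seen, stood at 213 CPM in Liver 1 and 14.6 CPM in Liver 2, whereas ITGA2B stood at 227 and 488 CPM and NFE2 at 388 and 572 CPM. Counts of ITGA2B per count of PF4 were 0.209 in Liver 1 and 0.877 in Liver 2. The part of the cell makeup of each liver in these ratios was not tested.

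**Figure D4:**
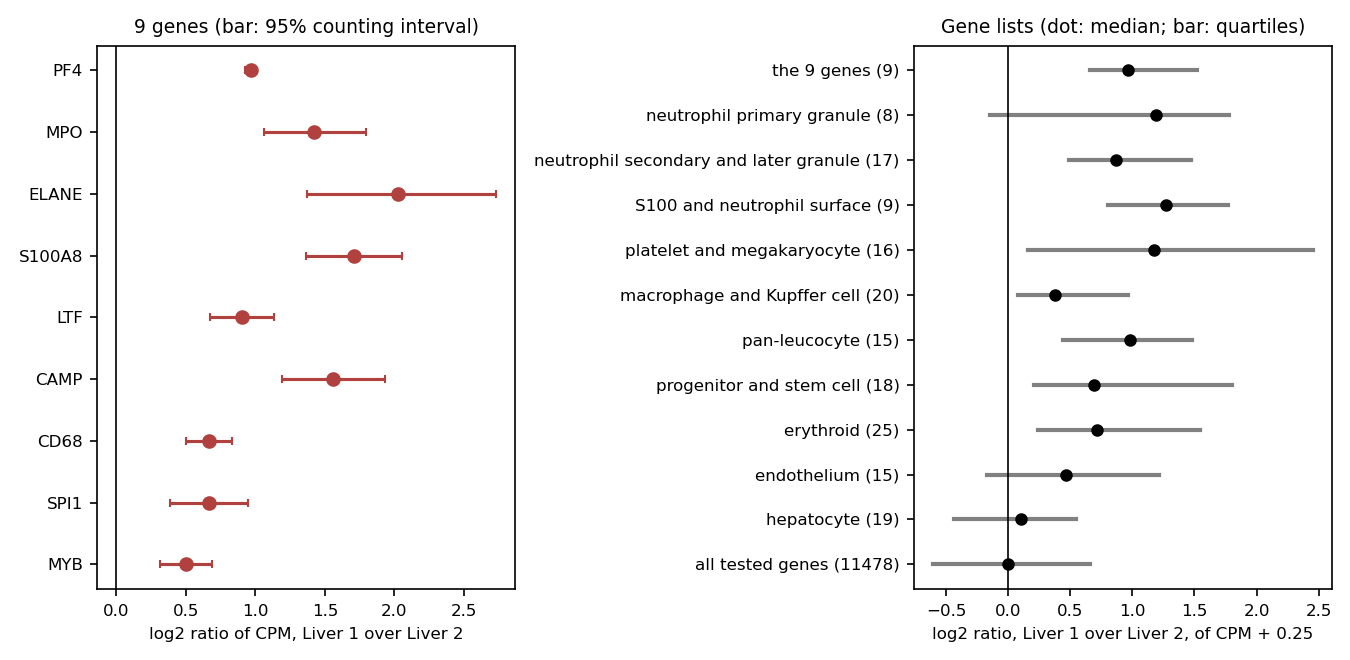
Left, log2 ratio of CPM in Liver 1 over Liver 2 for each of the 9 genes, with 95% counting intervals. Right, the median (dot) and quartiles (bar) of that ratio on CPM + 0.25 for gene lists, with the number of tested genes in brackets. All 9 genes lie above 0, the hepatocyte list lies at 0.10 and all tested genes at 0.00.

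The genes most like each of the 9 were sought by the root mean square distance of centred log2(CPM + 0.25) over the 6 libraries, among 11002 other genes with a mean of at least 1 CPM. Closest to CAMP were SLC2A2 (distance 0.11), CCR3 (0.15) and HGF (0.23). Those nearest CD68 were SLC30A2 (0.24), NGP (0.25) and TREH (0.26), and those nearest MYB were RGCC (0.22), SLC46A3 (0.26) and ARHGAP4 (0.27). ELANE was nearest GPD2 (0.28), GBX2 (0.30) and FGF22 (0.41), and SPI1 was nearest RETN (0.31), ABCG1 (0.37) and SLC16A6 (0.38). ADD2 was nearest to both MPO (0.35) and S100A8 (0.40), followed by SLC27A2 (0.39) and CHAC2 (0.40) for MPO and by BPGM (0.42) and EHD3 (0.44) for S100A8. LTF was nearest APBB1IP (0.38), LOC510193 (0.56) and MFNG (0.68). PF4 had LIPC (0.39), SAMD9 (0.59) and ITIH1 (0.60) as its nearest genes. With 6 libraries in 3 tissues, many genes share such a profile, and the offset of 0.25 CPM draws genes without counts together.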

How the data were processed

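Poly(A) RNA of fetal forebrain, liver and rumen was measured in 6 libraries. Reads were processed with HISAT2 2.0.5, featureCounts 1.5.0-p3 and edgeR 3.18.1, per the submitters' processing notes (genome build, annotation and strand: not given in the sources used here). The deposited values are the authors' raw counts per gene symbol, in 1 column per library, with no scaling. The 9 genes and 18 gene lists were chosen with earlier results of these data known. The test used edgeR 4.0.16 under R 4.3.3 (TMM scaling, filterByExpr, quasi-likelihood test, 1 mean per tissue, no block, 3 residual degrees of freedom), fitted on all 11478 tested genes, with Benjamini-Hochberg adjustment over all of them and a threshold of 0.05. Printed folds are edgeR's, with a prior count; SE is the log2 fold change over the root of the F statistic. Where a tissue had no counts, a bound against 3 counts over both its libraries is given. CAMP and list genes could pass the filter through liver alone, so counts of the 9 genes and of the lists are descriptions. Named were the 9 genes, growth factors and receptors called against liver, up to 4 genes of highest mean CPM in each list of blood cells or transcription factors, genes against their list, and those marked as named after their values were seen. Alternatives were other scalings, DESeq2 1.42.0, no filter, only the tissues compared, a replicate block and each library left out. Scripts were tested on simulated data. Each of 6 columns matched its label by name. No sequences were used. Some list genes are not reported here by name.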

Additional observations from a re-analysis of the deposited data

How the results depend on the processing

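Of 12 alternatives per gene and comparison, 281 values kept their direction and side of the threshold, 23 no longer passed and 15 newly passed. Another 4, none past the threshold, turned sign: ELANE in liver minus forebrain (0.24) without Liver 1 (-1.10), on library totals (-0.27) and with the replicate block (-0.11), and CD68 in rumen minus forebrain (-0.19) without Rumen 2 (0.17). Rumen minus liver called 8 or 9 of the 9 genes and liver minus forebrain 4 to 8. Rumen minus forebrain called 5, and 1 to 6 when a library was left out. With each library left out, all genes called ranged from 2271 to 6870 in rumen minus liver (4629 as designed), from 3641 to 7817 in liver minus forebrain (6353) and from 1878 to 7140 in rumen minus forebrain (4515). Fits limited to the 2 tissues compared called 7159 in rumen minus forebrain. Library totals with no scaling factor moved the median log2 fold change of all genes from 0.14 to -0.34 in liver minus forebrain and from -0.06 to 0.23 in rumen minus liver; the share of calls that were higher went from 53.2% to 39.3% and from 49.8% to 62.5%. The replicate numbers are shared only as numbers: deviations of same-numbered libraries correlated at 0.0782, -0.0653 and 0.0018 across genes. With the replicate block, 4021, 5767 and 3961 genes were called in rumen minus liver, liver minus forebrain and rumen minus forebrain; of the 9 genes, MPO in liver minus forebrain (adjusted p = 0.0672) and SPI1 in rumen minus forebrain (adjusted p = 0.061) no longer passed, and primary granule genes higher in liver than in forebrain numbered 3. Levels of 8 of 9 genes lay higher in both livers under each scaling; with a library left out, which was added after seeing the data (as were the bounds without 1 liver library), it was 8, or 9 without Liver 2. Depth limits the rumen values of MPO, S100A8 and CAMP to under the floor of 3 counts.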
